A study of Bos taurus with 14 samples.

Results

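ATP5MF, SDHD, COX11 and ATP6V0A2 are 4 genes of the nuclear genome that the study listed together under oxidative phosphorylation among genes that differed between groups of Day-4 bovine embryos. They are described here over all 14 RNA-seq libraries, as 4 of the 27607 genes in the deposited count table (ATP5MF is ENSBTAG00000002094, SDHD is ENSBTAG00000016266, COX11 is ENSBTAG00000007015 and ATP6V0A2 is ENSBTAG00000007272). All 4 passed the filter on low counts. Because differences between Day-4 groups chose them, those differences are given as a description without a test, and only the change from Day 2 to Day 4 was tested.

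Each library was made from a pool of 5 embryos produced in vitro from abattoir oocytes and the semen of 1 bull. The Day-2 group held 5 pools of 4-cell embryos from culture. The Day-4 groups held 3 pools each of 16-cell embryos that had either stayed in culture in synthetic oviduct fluid (IVC) or spent the time from the 2- to 4-cell stage in the oviduct of a primiparous Holstein-Friesian cow. These recipients were postpartum cows that were either lactating (LACT) or had been dried off at calving and never milked (DRY). Each received 50 embryos, and the 5 embryos of such a pool came from the oviduct of 1 cow, so the oviduct pools differ by cow and the culture pools do not.

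Mitochondria make most ATP by oxidative phosphorylation, in which electrons pass along protein complexes of the inner membrane and the proton gradient they build drives ATP synthase. SDHD is a membrane anchor of succinate dehydrogenase, which is complex II of that chain and also an enzyme of the TCA cycle. COX11 is not a subunit but a copper chaperone needed to assemble cytochrome c oxidase, complex IV. ATP5MF is a small subunit in the membrane part of ATP synthase, which makes ATP from the proton gradient. ATP6V0A2 belongs to another machine: it is an isoform of the a subunit of the vacuolar ATPase, which spends ATP to pump protons into the Golgi, endosomes and other compartments. Early embryos begin with RNA that the oocyte stored, and in cattle the major activation of the embryonic genome falls between the 2 stages sampled here.

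Total counts per library ranged from 27790816 to 30120040 on Day 2 and from 22711367 to 40357379 on Day 4. The 10 most abundant genes held 12.5% to 20.1% of the reads in Day-2 libraries, against 40.6% to 46.8% in Day-4 libraries. Levels are given as CPM after TMM scaling, that is as counts relative to the library total multiplied by a scaling factor of each library. They depend on the rest of the library, and 3 counts correspond to 0.0645 to 0.145 CPM. Each library is a bulk pool, in which fewer cells of a type and less RNA per cell cannot be told apart. In 3 libraries (IVC replicate 1, DRY replicate 3 and LACT replicate 3) the values lay close to the mean of the other libraries of the same group. Between 80.2% and 98.4% of the genes compared had a CPM between those of the other 2 libraries there. For the 4 genes this held in all 12 cases, at 88.9% to 102% of the mean of the others. These 3 libraries may add little independent information, so the tests, the overlaps and the counts of genes called are given with them and without them. Group means, SDs and fold changes between single groups include them.

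ATP5MF, SDHD and COX11 rose from Day 2 to Day 4, whereas no change of ATP6V0A2 was detected. Averaged over the 3 Day-4 groups, the level was 35.2-fold above Day 2 for ATP5MF, 21.6-fold for SDHD and 7.31-fold for COX11. For ATP6V0A2 it was 0.960 of the Day-2 level. For comparison, 30.9% of the 13390 genes tested were higher on Day 4 and 33.0% were lower (25.7% and 29.5% without the 3 libraries), so a rise alone was common in these embryos. In 20.4% of the genes tested all Day-4 libraries lay above all Day-2 libraries (21.6% without the 3 libraries).

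**Figure D1:**
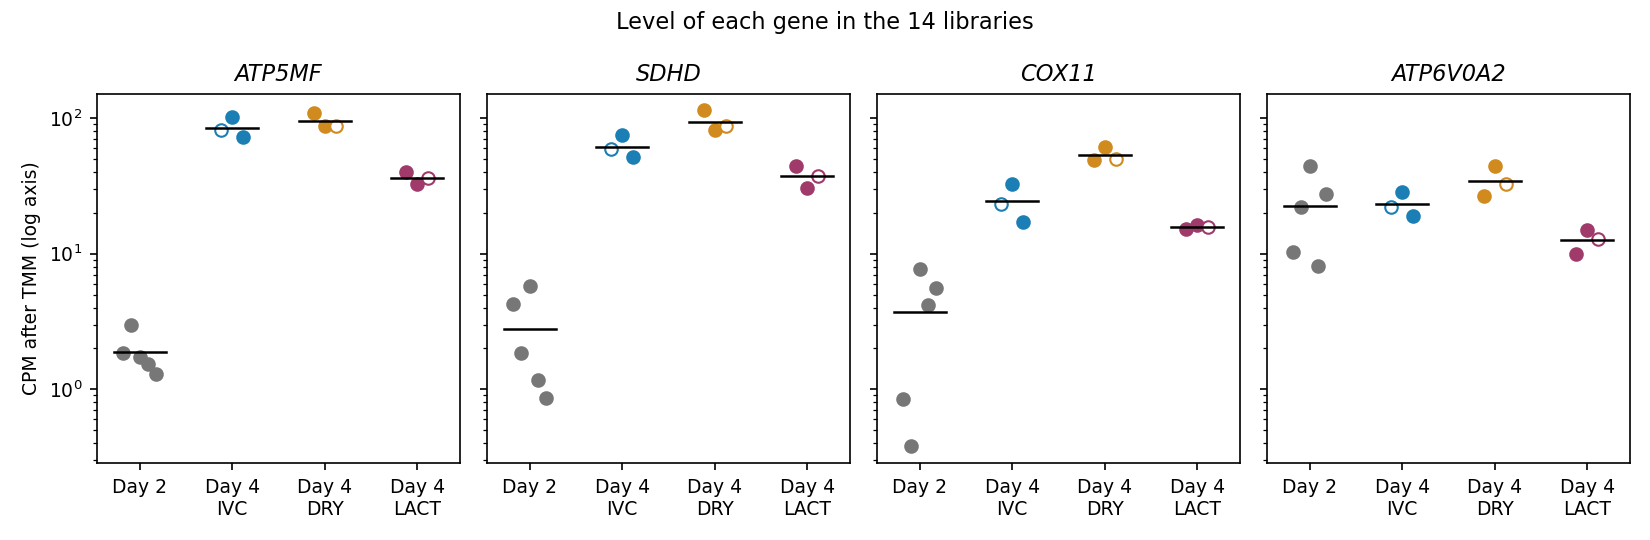
Level of ATP5MF, SDHD, COX11 and ATP6V0A2 in each library (CPM after TMM, log axis) in the Day-2 group and the Day-4 IVC, DRY and LACT groups, with points for libraries, open circles for the 3 libraries close to their group's mean, and lines for group means. The Day-2 points lie below all Day-4 points for ATP5MF, SDHD and COX11, and among them for ATP6V0A2.

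ATP5MF, the ATP synthase subunit, was scarce on Day 2, at 1.86, 3.00, 1.72, 1.54 and 1.29 CPM in replicates 1 to 5, from 43 to 95 reads per library. On Day 4 it reached 81.3, 101 and 71.9 CPM in IVC, 109, 87.8 and 87.9 CPM in DRY, and 40.0, 32.6 and 36.2 CPM in LACT. The lowest Day-4 library, LACT replicate 2, stood well above the highest Day-2 library, and the groups of the 2 days did not overlap. The log2 fold change was 5.14 (SE 0.31, edgeR quasi-likelihood test, FDR = 4.527e-09), with a 95% interval of 22.3- to 55.6-fold. Without the 3 libraries near their group mean it was 5.18 (SE 0.43, edgeR, FDR = 1.756e-06). In the order of all genes tested, its absolute change was larger than that of 85.2% of them.

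SDHD, the complex II anchor, lay at 4.24, 1.87, 5.75, 1.18 and 0.860 CPM on Day 2. Its Day-4 values were 59.0, 74.5 and 51.5 CPM in IVC, 114, 81.4 and 86.9 CPM in DRY, and 44.4, 30.6 and 37.2 CPM in LACT. Every Day-4 library was again above every Day-2 library, although Day-2 replicates 1 and 3 were clearly higher than the other 3. The log2 fold change was 4.43 (SE 0.50, edgeR, FDR = 2.615e-06), with a 95% interval of 10.4- to 45.1-fold. It was 4.48 (SE 0.61, edgeR, FDR = 8.19e-05) without the 3 libraries.

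COX11, the copper chaperone, varied most on Day 2, with 0.853, 0.379, 7.68, 4.18 and 5.61 CPM in replicates 1 to 5. On Day 4 it lay at 23.2, 32.8 and 17.2 CPM in IVC, 49.4, 60.8 and 50.1 CPM in DRY, and 15.1, 16.3 and 15.8 CPM in LACT. The 2 days did not overlap, but the gap between Day-2 replicate 3 and the LACT libraries was narrow. The log2 fold change was 2.87 (SE 0.62, edgeR, FDR = 0.001065), with a 95% interval of 2.90- to 18.4-fold, and 2.91 (SE 0.77, edgeR, FDR = 0.007113) without the 3 libraries.

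ATP6V0A2, the vacuolar ATPase subunit, was already present on Day 2, at 10.4, 21.9, 44.4, 8.05 and 27.7 CPM. On Day 4 it stood at 22.2, 28.4 and 19.0 CPM in IVC, 26.4, 44.3 and 32.9 CPM in DRY, and 9.94, 15.1 and 12.7 CPM in LACT. The 2 days covered nearly the same range. The log2 fold change was -0.06 (SE 0.39, edgeR, FDR = 0.9029), with a 95% interval from 0.536 to 1.72 of the Day-2 level. Without the 3 libraries it was -0.03 (SE 0.53, edgeR, FDR = 0.9672), with an interval from 0.443 to 2.17.

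The Day-2 pools were unequal for these genes. Between the lowest and the highest Day-2 library, COX11 differed 20.2-fold, SDHD 6.68-fold, ATP6V0A2 5.52-fold and ATP5MF 2.33-fold. The spread of ATP5MF on the log2(CPM + 1) scale was small, with only 5.24% of the genes of like Day-2 level showing a smaller SD. For SDHD, COX11 and ATP6V0A2 that share was 30.7%, 54.7% and 65.0%, which is nearer the middle of such genes. Replicates 3 and 5 were the 2 highest of the 5 for both COX11 and ATP6V0A2, in CPM and in reads. For ATP5MF and SDHD the lowest library depended on the scaling. It was replicate 5 in CPM but replicate 4 in reads, with 43 and 33 reads against 60 and 40 in replicate 5.

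**Figure D2:**
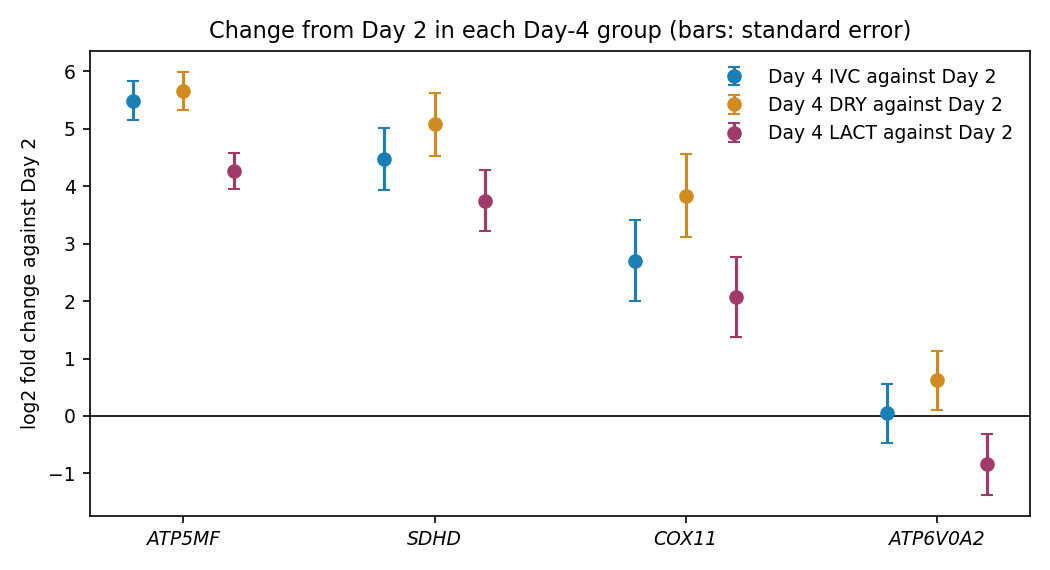
Log2 fold change of each Day-4 group (IVC, DRY and LACT) against Day 2 for the 4 genes, from the fit on 14 libraries, with bars for the standard error. ATP5MF, SDHD and COX11 lie above 0 in each group, ATP6V0A2 lies on either side of 0, and LACT is the lowest group for each gene.

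Taken group by group, the change from Day 2 kept that pattern, given here as values only. For ATP5MF the log2 fold change reached 5.49 (IVC), 5.66 (DRY) and 4.27 (LACT). SDHD stood at 4.47, 5.08 and 3.75 in the same order, and COX11 at 2.7, 3.83 and 2.07. ATP6V0A2 was at 0.04 in IVC, 0.62 in DRY and -0.84 in LACT, with standard errors of 0.51 to 0.53. These comparisons share the 5 Day-2 libraries.

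Among the Day-4 groups, which chose the genes, the mean level of each of the 4 was highest in DRY, intermediate in IVC and lowest in LACT. DRY and LACT did not overlap for any of the 4, and neither did IVC and LACT. DRY and IVC did not overlap for SDHD and COX11, but did for ATP5MF and ATP6V0A2, where the neighbouring groups are not separated by their spread. Of the 12069 genes tested on Day 4, 15.1% lay in DRY above LACT without overlap, 18.6% in IVC above LACT, 15.5% in DRY above IVC, and 14.9% had that order of means. The 3 libraries near their group mean lay inside the ranges, so the overlaps of the 4 genes are the same without them, where the shares are 16.3%, 19.6%, 16.1% and 15.2%. Nothing further is read from these counts, since the genes were picked for such differences.

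ATP5MF averaged 95.0 ± 12.4 CPM in the DRY libraries, 84.9 ± 15.0 in those of IVC and 36.3 ± 3.72 in those of LACT (± SD over 3 libraries). SDHD had 94.1 ± 17.5 CPM in DRY, 61.7 ± 11.8 in IVC and 37.4 ± 6.90 in LACT. The step between DRY and IVC was thus within these SDs for ATP5MF and wider for SDHD. The SDs include the libraries near their group mean and may understate the spread between pools. COX11 had 53.4 ± 6.38 CPM in DRY, 24.4 ± 7.85 in IVC and 15.7 ± 0.572 in LACT. ATP6V0A2 had 34.5 ± 9.08 CPM in DRY, 23.2 ± 4.80 in IVC and 12.6 ± 2.56 in LACT.

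DRY exceeded LACT by 2.73-fold for ATP5MF, 2.62-fold for SDHD, 3.54-fold for COX11 and 2.86-fold for ATP6V0A2, so the vacuolar ATPase gene lay inside the range of the other 3. The standard errors of these log2 fold changes were 0.21 to 0.33 with 9 libraries and 0.48 to 0.74 with 6. LACT lay below IVC with a log2 fold change of -1.30 for ATP5MF, -0.79 for SDHD, -0.71 for COX11 and -0.95 for ATP6V0A2. DRY against IVC differed more among the genes, with log2 fold changes of 0.15 for ATP5MF, 0.60 for SDHD, 1.11 for COX11 and 0.56 for ATP6V0A2. Without the 3 libraries near their group mean these 3 comparisons called 0.501%, 0.130% and 0.686% of all genes tested, against 9.65%, 8.43% and 13.8% with them.

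The 5 mitochondrially encoded genes listed under the same term (ND6, ND4L, CYTB, COX3 and ATP8) rose 3.23- to 5.66-fold from Day 2 to Day 4 (edgeR, highest FDR = 0.0003617). Without the 3 libraries near their group mean they rose 3.31- to 5.81-fold (edgeR, highest FDR = 0.002093). They too were chosen on differences between Day-4 groups, so the order DRY, IVC, LACT of their means, which 14.9% of all genes had, and the 1.56- to 1.81-fold higher level in DRY than in LACT are a description.

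Ratios of read counts of 2 genes within a library do not depend on how libraries are scaled. Since reads also depend on transcript length, such a ratio is compared here only between libraries, and these ratios were chosen after the values had been seen. The ratio of ATP5MF to ATP6V0A2 was 0.0387 to 0.191 in the Day-2 libraries and 1.98 to 4.14 in those of Day 4. SDHD to ATP6V0A2 went from 0.0310 to 0.409 on Day 2 to between 1.84 and 4.47 on Day 4, and COX11 to ATP6V0A2 from 0.0173 to 0.520 to between 0.908 and 1.87. None of the 3 ratios overlapped between the days.

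**Figure D3:**
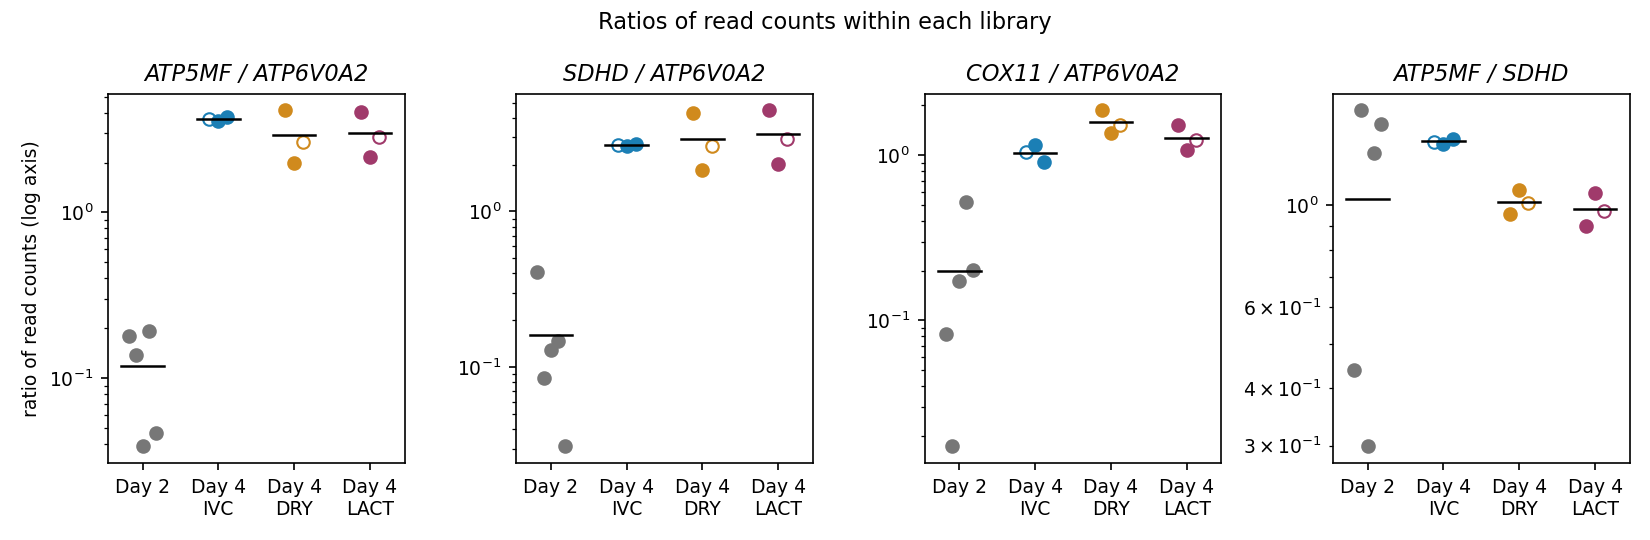
Ratio of read counts within each library (log axes) for ATP5MF, SDHD and COX11 over ATP6V0A2 and for ATP5MF over SDHD, in the Day-2 group and the 3 Day-4 groups, with lines for group means and open circles for the 3 libraries near the mean of their group. The first 3 ratios are higher in every Day-4 library than in any Day-2 library, and the last is 1.36 to 1.40 in IVC against 0.901 to 1.08 in DRY and LACT.

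Over 11 libraries, without the 3 near their group mean, the ratios to ATP6V0A2 rose 32.5-fold for ATP5MF, 24.5-fold for SDHD and 10.6-fold for COX11. In the two-sided exact permutation test over 6 Day-4 and 5 Day-2 libraries each gave p = 0.002165, and 0.004329 after adjustment over the 6 pairs of genes. This is the smallest p the design allows, which follows from the lack of overlap between the days, and it adds nothing to the separation seen before the test was chosen. The ratios among the other 3 genes did not pass with these 11 libraries. ATP5MF to SDHD changed by 0.41 on the log2 scale (adjusted p = 0.4351, exact permutation test), ATP5MF to COX11 by 1.62 (adjusted p = 0.1916) and SDHD to COX11 by 1.21 (adjusted p = 0.2935). The call on the second depends on Day-2 replicate 2, without which ATP5MF rose relative to COX11 by 2.45 on the log2 scale (adjusted p = 0.02143, exact permutation test), while it was 1.16 without Day-2 replicate 3. With all 14 libraries the 3 ratios to ATP6V0A2 had an adjusted p of 0.000999 in the exact permutation test, and the others stayed above the threshold, the lowest at 0.07043.

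Between the Day-4 groups, which chose the genes, the 6 ratios are a description. The ratio of ATP5MF to SDHD was higher in culture than in either oviduct group. It was 1.38, 1.36 and 1.40 in the IVC libraries, 0.958, 1.08 and 1.01 in DRY, and 0.901, 1.06 and 0.974 in LACT. IVC lay above both oviduct groups without overlap, as it did for the ratio of ATP5MF to 8.76% of the other genes tested on Day 4 (8.89% with 6 libraries), while DRY and LACT overlapped. ATP5MF to COX11 was likewise 3.09 to 4.17 in IVC, 1.44 to 2.21 in DRY and 2.01 to 2.65 in LACT. The other 4 ratios overlapped between IVC and at least 1 oviduct group. SDHD to COX11 was 2.27 to 2.99 in IVC, 1.34 to 2.31 in DRY and 1.88 to 2.94 in LACT, and COX11 to ATP6V0A2 was 0.908 to 1.15 in IVC, 1.37 to 1.87 in DRY and 1.08 to 1.52 in LACT. SDHD to ATP6V0A2 lay at 2.62 to 2.71 in IVC, inside the ranges of both oviduct groups. Likewise, the ratio of ATP5MF to ATP6V0A2 was 3.57 to 3.79 in IVC, inside the ranges of 1.98 to 4.14 in DRY and 2.16 to 4.03 in LACT.

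Other genes of the pathway were taken from the study's term lists by Ensembl ID, since no table used here pairs most of their IDs with gene symbols. These cover complexes I, III and IV, the assembly of complex IV, ATP synthase and the TCA cycle, with 62 genes besides the 4. They include 4 of the mitochondrially encoded genes named above (ND6, CYTB, COX3 and ATP8). Other listed IDs lie in the same number block at similarly high levels, such as ENSBTAG00000043563 in the complex I list, at 31044.9 CPM on Day 4. They were not identified here and may also be mitochondrially encoded, so the list medians are not those of nuclear genes alone. All 62 were higher on Day 4 (edgeR, FDR under 0.05). Their log2 fold changes ran from 1.19 to 7.21 around a median of 3.72, against a median of -0.03 over all genes tested. The study picked most of these lists for a rise on Day 4 in these same libraries, so the count is not independent evidence of its direction. Without the 3 libraries 60 of the 62 passed, beside 25.7% of all genes.

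**Figure D4:**
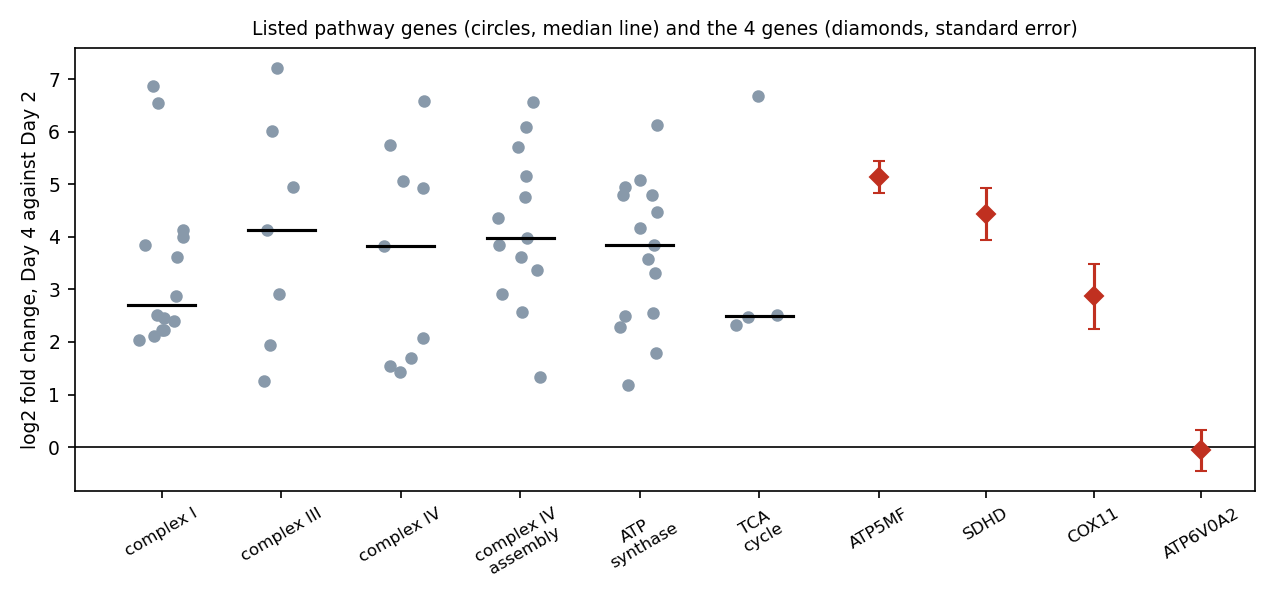
Log2 fold change of Day 4 against Day 2 for the 62 listed genes by term (circles, with a line at the median) and for the 4 genes (diamonds, with standard errors). The listed genes all lie above 0, as do ATP5MF, SDHD and COX11, while ATP6V0A2 lies at -0.06.

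ATP5MF, at 5.14, lay above the median of the 15 other ATP synthase genes (3.84), and COX11, at 2.87, below that of the 13 other complex IV assembly genes (3.99). SDHD, at 4.43, was above 3 of the 4 other listed TCA cycle genes, whose median was 2.50. The medians of the complex I, III and IV lists, which mix genes of both genomes, were 2.7, 4.14 and 3.82. ATP6V0A2 has no other vacuolar ATPase gene in these lists to be set beside.

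Between DRY and LACT, 8 of the 62 listed genes were higher in DRY, 1 was lower and 53 did not pass (edgeR, 9 libraries), beside 4.01% higher and 5.64% lower over all genes. Of the 8, 5 belong to the 8 listed genes that the study chose on differences between Day-4 groups, that is the TCA cycle list and the 4 named mitochondrially encoded genes. Among the other 54, 3 were higher (5.56%) and 1 was lower. In the paper, oxidative phosphorylation was enriched among genes that rose on Day 4 and did not differ between Day-4 groups. The paper also found it enriched, with the TCA cycle, among genes highest in DRY and lowest in LACT. Lists taken from the genes that did not differ hold few Day-4 differences by selection, so these shares are not read as a result about the pathway. The median log2 fold change of the list was 0.23, against 1.39 to 1.82 for the 4 genes, which were selected on such differences. For LACT against IVC 3 were lower and the other 59 did not pass, beside 4.50% lower over all genes. For DRY against IVC 3 were higher and 1 lower, beside 5.95% and 7.87%. Among the 54 without the 8 chosen genes, 0 were higher and 1 was lower in LACT against IVC. In DRY against IVC 1 of the 54 was higher and 1 was lower. With 6 libraries none of the 62 passed in any of the 3 comparisons (edgeR), beside 0.501%, 0.13% and 0.686% of all genes called. An unadjusted p under 0.05 was found for 8, 2 and 0 of the 62. The share of all genes under that unadjusted p was not computed, so nothing is read from these counts. With DESeq2 in place of edgeR, 16, 10 and 14 of the 62 were called, beside 2581, 2350 and 3159 of the 12069 genes. Without LACT replicate 3, 2 of the 62 were called for DRY against LACT, beside 252 of 11695 genes. The list did not always move with all genes. For DRY against IVC, DESeq2 size factors took it from 4 to 7, and all genes from 1668 to 1677.

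The TCA cycle list, which the study chose for a difference between Day-4 groups, had the largest median between DRY and LACT, at a log2 fold change of 1.93 over 4 genes. The ATP synthase list had a median of 0.10 and the complex IV assembly list one of -0.52. ATP5MF (1.45) and COX11 (1.82) lay above these medians, but they were selected on differences between Day-4 groups, so nothing is read from this.

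Across the 11 libraries, as a description over points that share their day, the log2(CPM + 1) of ATP5MF and SDHD correlated at r = 0.973, of ATP5MF and COX11 at 0.856, and of SDHD and COX11 at 0.866. The correlations with ATP6V0A2 were 0.220, 0.255 and 0.423. The gene most like ATP5MF among those tested was ENSBTAG00000008493 (r = 0.997), and 633 genes had an r over 0.95 with it. For SDHD it was ENSBTAG00000020594 (r = 0.989), with 331 such genes. COX11 had 16 and ATP6V0A2 none, with highest r of 0.97 and 0.883.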

How the data were processed

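The authors deposited raw read counts per Ensembl gene for 14 libraries, without normalisation. Per the paper's methods and the submitters' processing notes, 100-bp single-end reads were trimmed with Trimmomatic, aligned to bosTau9 with STAR 2.7.0b and counted with featureCounts of Subread 2.0.3. The strand setting and annotation release are not given in the sources used here, and reads of overlapping genes could not be told apart. In the RefSeq annotation, MIR1721 overlaps ATP6V0A2, and no other gene overlaps the 4.

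Groups and replicate numbers came from the sample labels. Genes that reached 1 CPM in 3 or more libraries were kept (13390 over 14 libraries, 12657 over 11, 12069 over 9 and 10785 over 6), scaled with TMM, and fitted with 1 coefficient per group by the robust quasi-likelihood method of edgeR 4.0.16 (limma 3.58.1, R 4.3.3). P-values were adjusted by Benjamini-Hochberg over all genes tested, with a threshold of 0.05. The 3 Day-4 groups, equally weighted, were set against Day 2 in the fit on 14 libraries, and Day-4 groups were compared in the fit on 9. Ratios were tested by exact permutation (scipy 1.17.1, Python 3.11.15). Standard errors of log2 fold changes were derived from the fold change and the F statistic of the quasi-likelihood test. The 95% intervals were built from these standard errors with the t distribution. P-values measure the spread between pools, which for culture may be partly technical. DESeq2 1.42.0, a likelihood ratio test with observation weights and other alternatives were run as described in the closing section. The scripts were tested on simulated data.

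The 4 genes and the lists were chosen with earlier results of these data known. Named were the 4 genes, 5 mitochondrially encoded genes, and for each of the 4 the most similar genes by Pearson r, of which 2 are given by ID. Lists by gene symbol, including markers of oocyte, oviduct, cumulus and blood cells, were not analysed here, so the labelled cell type was not checked. The study's maSigPro analysis was not run.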

Additional observations from a re-analysis of the deposited data

Results flagged for a closer look

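Among 15 measures of the 5 Day-2 libraries (levels of 9 genes and 6 ratios), 1 stood out. The ratio of ATP5MF to COX11 counts was 7.92 in replicate 2, from 95 and 12 reads, against 2.18, 0.224, 0.368 and 0.230 in replicates 1, 3, 4 and 5. The gap to the nearest library was 0.746 of the whole range, over the critical value of 0.71. Chance flags about 1 in 20 groups of normally distributed values, which need not hold for an untransformed ratio. On the log2 scale of the ratio tests the values were 1.12, 2.98, -2.16, -1.44 and -2.12 in replicates 1 to 5, and this scale was not checked.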

How the results depend on the processing

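The calls for the 4 genes between Day 2 and Day 4 stayed on the same side of the threshold under every alternative run, at log2 fold changes of 4.94 to 5.40 for ATP5MF, 3.98 to 4.70 for SDHD, 2.83 to 3.66 for COX11 and -0.14 to 0.19 for ATP6V0A2 (leaving out 1 library: 5.03 to 5.37, 4.20 to 4.88, 2.57 to 3.30, and -0.28 to 0.34). The replicate numbers did not pair the libraries (correlations of deviations from -0.05 to 0.10). With the replicate number as a block, the log2 fold changes were 4.94, 3.98, 3.66 and -0.14, 61 listed genes were higher on Day 4, and all genes called fell from 8560 to 7640 for Day 4 against Day 2. DESeq2 size factors moved the median of all genes from -0.03 to 0.12. With 10 counts required in every library 35 listed genes were higher on Day 4, since fewer genes were tested.

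The Day-4 counts of listed genes called depended on the method, as did those of all genes. DRY against LACT (9 genes) gave 5 without the 10 genes of highest count, 16 with DESeq2 and 0 in the fit on 14 libraries or with 2 libraries per Day-4 group, and 2 to 10 with 1 library left out (4 without IVC replicate 1 or DRY replicate 3, 2 without LACT replicate 3). LACT against IVC (3 genes) gave 10 with DESeq2, 7 with the likelihood ratio test, 0 in the fit on 14 libraries or with 2 libraries per group, and 0 to 5 with 1 left out (0 without IVC replicate 1 or LACT replicate 3, 1 without LACT replicate 2, 5 without DRY replicate 2). DRY against IVC (4 genes) gave 7 with DESeq2 size factors, 2 without a filter, 8 with 10 counts in every library, 14 with DESeq2, 8 with the likelihood ratio test, 0 in the fit on 14 libraries or with 2 per group, and 0 to 9 with 1 left out (0 without IVC replicate 1 or DRY replicate 3, 1 without DRY replicate 2 or LACT replicate 3, 2 without IVC replicate 2, 9 without LACT replicate 2). With 1 library left out, DRY against LACT ranged from 1.25 to 1.51 for ATP5MF and from 1.67 to 1.88 for COX11, and DRY against IVC for ATP5MF from -0.03 (without IVC replicate 3) to 0.26. The cause of these shifts was not tested. With 1 of the 11 libraries left out, the log2 ratios to ATP6V0A2 changed by 4.69 to 5.27 for ATP5MF, 4.14 to 5.07 for SDHD and 2.7 to 3.93 for COX11 (exact permutation test, highest adjusted p = 0.01587). These ratios do not overlap between the days, so each unadjusted p was the smallest possible and adds nothing to the separation. ATP5MF to COX11 changed by 1.16 to 2.45 and passed only without Day-2 replicate 2 (adjusted p = 0.02143, otherwise 0.1029 to 0.4), ATP5MF to SDHD by 0.04 to 0.64 (adjusted p at least 0.2238) and SDHD to COX11 by 0.55 to 1.81 (adjusted p at least 0.08571, exact permutation tests).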
